A study of Rattus norvegicus with 4 samples.

Results

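The mitochondrial carriers of the SLC25 family were described in heart muscle cells of newborn rats, cultured from the ventricles, after knockdown of Crat, the mitochondrial carnitine acetyltransferase. Members were the rows of the deposited table whose symbol begins with Slc25a and a digit, plus Ucp2 and Ucp3, leaving out the citrate carrier Slc25a1 and the carnitine carrier Slc25a20. This gave 35 genes of the 14137 identifiers in the table; no row carried the symbol Ucp3 or that of the phosphate carrier Slc25a3, which were not analysed here. The labels call the groups WT and KO, and the design text says what they were: cultures infected with lentivirus that expressed a control short hairpin RNA or a Crat hairpin, harvested 5 days later. Both groups thus carried a lentiviral hairpin, and there were 2 libraries in each. The only comparison is Crat hairpin against control, and it asks how the carriers' transcripts differ once Crat is depleted.

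SLC25 proteins sit mostly in the inner mitochondrial membrane, where each moves a small set of solutes such as nucleotides, phosphate, keto acids, amino acids, metals or cofactors between cytosol and matrix. They are encoded in the nucleus and made in the cytosol. Small chaperones escort them between the membranes, and a translocase inserts them into the inner membrane. In heart muscle the ADP/ATP carriers export the ATP that contraction uses, and the aspartate-glutamate and oxoglutarate carriers form the malate-aspartate shuttle for reducing equivalents.

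The libraries differed greatly in depth. Recovered reads numbered 23680064 and 1321735 in control replicates 1 and 2 and 321516 and 1622998 in Crat hairpin replicates 1 and 2. The median member was counted with 606 and 38 reads in the controls and with 13 and 59 in the Crat hairpin libraries, and 16 of 35 members had under 10 reads in Crat hairpin replicate 1. Crat itself, counted with 8 and 32 reads there, had 148 and 156 RPM (reads scaled to a library total of 1e+06) in the controls against 24.9 and 19.7 with the Crat hairpin, a log2 fold change of -2.72 (limma, Benjamini-Hochberg adjusted p = 7.3e-06). Of the 12 cardiomyocyte markers listed, 10 were in the table and all 10 had reads in the 4 libraries.

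Among the carriers the 2 mitoferrins, which bring iron into mitochondria, rose the most, and the branched-chain amino acid carrier Slc25a44 and the NAD carrier Slc25a51 rose as well. The heart and muscle ADP/ATP carrier Slc25a4 fell. Thus 4 of the 33 members that could be tested rose and 1 fell, while 28 did not pass the limma test; Slc25a43 and Slc25a45, with a mean under 1 RPM, were not tested. Over all 12949 genes tested 12.6% rose and 6.36% fell, or 19.0% in either direction, against 12.1% and 3.03% of the members. In this fit 15.2% of the members were called in either direction, below the share of all genes, but that order depended on the processing. The members' median log2 fold change was -0.04 and that of all genes 0.15. TMM and median-of-ratios scaling lowered the median of all genes by 0.195 and 0.182, and the split of called members became 3 higher and 5 lower, and 3 higher and 4 lower. That is 24.2% and 21.2% of the members, against 17.6% and 17.7% of all genes at the same scalings, and in edgeR it was 39.4% against 29.6%. Values below are on the library-total scale and lie above those scales by about that much. The count that rose was 1 without control replicate 1, 3 without control replicate 2, 8 without Crat hairpin replicate 1 and 9 without Crat hairpin replicate 2, and the count that fell was 1, 1, 4 and 8. The calls over all genes moved likewise, to 4.65%, 9.85%, 29.9% and 48.7% of the genes tested, against 6.06%, 12.1%, 36.4% and 51.5% of the members. Of the 28 members that did not pass, 12 passed under at least 1 alternative that kept all 4 libraries. The matching share of all genes was not counted, so this is not a trait of the carriers. In edgeR alone 29.6% of all genes tested were called.

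**Figure D1:**
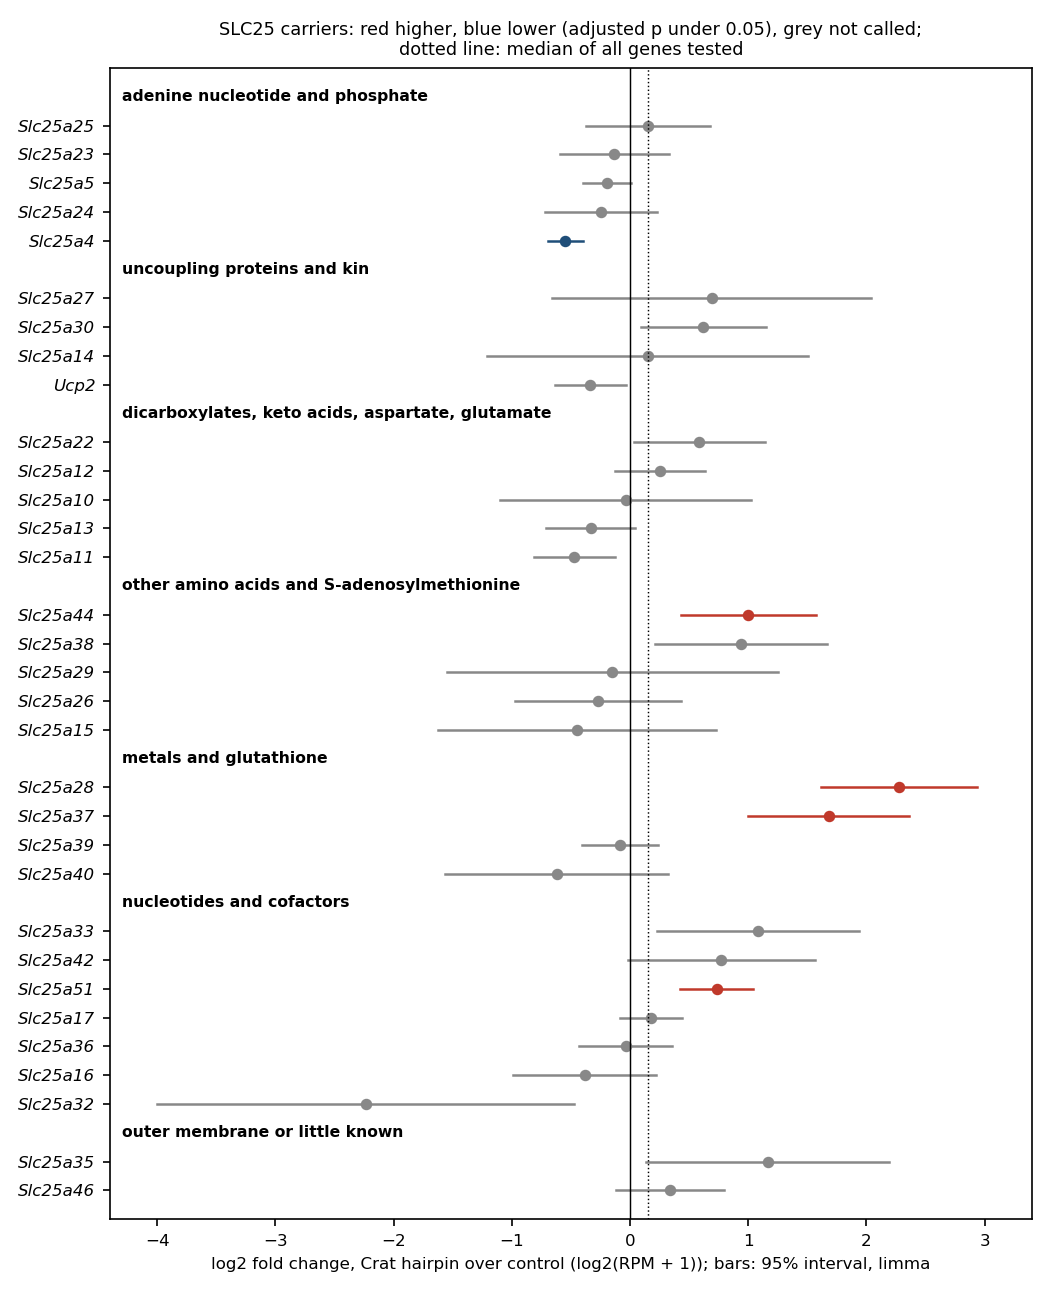
Log2 fold change of 32 of the 33 tested SLC25 carriers, Crat hairpin over control on the log2(RPM + 1) scale, grouped by the solutes they carry; points are limma estimates from 2 libraries against 2 and bars their 95% intervals. The mitoferrins Slc25a28 and Slc25a37 lie farthest to the right at 2.28 and 1.68, Slc25a4 is the only member called lower, and the widest interval is that of Slc25a32.

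The transcript with the largest rise was that of Slc25a28, mitoferrin 2, the mitoferrin found in most tissues and a member of commonly used interferon response gene sets. It had 13.0 and 9.84 RPM in the controls against 71.5 and 48.1 RPM with the Crat hairpin, from 307, 13, 23 and 78 reads. Every Crat hairpin value was above every control value, and the group mean was 5.25-fold higher (11.4 ± 2.21 against 59.8 ± 16.6 RPM, SD, n = 2). The log2 fold change was 2.28 ± 0.29 (SE, limma adjusted p = 5.2e-04), and the call held with each of the 4 libraries left out, with values from 1.996 to 2.56. It was lost without a variance trend (adjusted p = 0.0553) and after thinning every library to the 321516 reads of the shallowest in a single draw (adjusted p = 0.0741), where the log2 fold change was 2.55.

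Slc25a37, mitoferrin 1, which supplies iron for haem synthesis in red cell precursors, had 9.84 and 9.08 RPM in the controls and 31.1 and 33.9 RPM in the Crat hairpin libraries. The libraries of a group were close together and the groups did not overlap. The group mean was 3.44-fold higher, and the log2 fold change was 1.68 ± 0.30 (SE, limma adjusted p = 0.0039). Only 10 reads of it were counted in Crat hairpin replicate 1 and 12 in control replicate 2, and the call was lost without control replicate 1 (adjusted p = 0.118) and after thinning (adjusted p = 0.299). Within a library the log2 ratio of Slc25a28 to Slc25a37 was 0.40 and 0.12 in the controls and 1.202 and 0.50 in the Crat hairpin libraries; the groups did not overlap, but the second Crat hairpin value lay nearer to a control than to the other Crat hairpin library.

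The other 2 carriers grouped with metals and glutathione did not pass. Slc25a39, the glutathione carrier of the inner membrane, had 102 and 104 RPM in the controls and 90.2 and 105 in the Crat hairpin libraries, with overlapping groups. Its log2 fold change was -0.08, with a 95% interval from -0.41 to 0.24. Its paralogue Slc25a40 had 11.7 and 14.4 RPM and then 6.22 and 10.5, lower in both Crat hairpin libraries. It had only 2 and 17 reads there, and its interval ran from -1.56 to 0.33. The log2 ratio of Slc25a39 to Slc25a40 was 3.12 and 2.86 in the controls and 3.86 and 3.32 in the Crat hairpin libraries, without overlap.

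Windows of 250 bases before the start site are printed for called members found in the RefSeq promoter table (build GRCr8) and for Slc25a5, the close relative of Slc25a4, so that the genes that moved and one that did not pass can be compared. They lie at chr1:252491343-252491592 for Slc25a28, chr2:176180839-176181088 for Slc25a44 and chr5:64459005-64459254 for Slc25a51, all on the minus strand, and at chr16:52805271-52805520 for Slc25a4 and chrX:120897366-120897615 for Slc25a5, on the plus strand. Each is written 5′ to 3′ in the direction of the gene, with a match to a searched motif in capitals.
Slc25a28: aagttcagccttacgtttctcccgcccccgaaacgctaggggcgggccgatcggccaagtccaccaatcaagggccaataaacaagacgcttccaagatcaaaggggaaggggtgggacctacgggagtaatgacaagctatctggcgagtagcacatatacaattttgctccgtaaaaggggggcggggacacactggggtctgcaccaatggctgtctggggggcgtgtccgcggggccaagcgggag
Slc25a44: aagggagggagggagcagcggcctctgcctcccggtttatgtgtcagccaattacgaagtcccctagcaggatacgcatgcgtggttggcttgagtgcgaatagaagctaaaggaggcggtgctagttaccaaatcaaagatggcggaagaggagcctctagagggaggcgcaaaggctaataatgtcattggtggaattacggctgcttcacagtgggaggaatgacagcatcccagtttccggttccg
Slc25a51: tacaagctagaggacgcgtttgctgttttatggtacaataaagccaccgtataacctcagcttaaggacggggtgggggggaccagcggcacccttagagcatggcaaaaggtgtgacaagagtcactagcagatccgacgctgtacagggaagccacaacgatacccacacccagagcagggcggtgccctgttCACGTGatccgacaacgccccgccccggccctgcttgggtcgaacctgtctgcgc
Slc25a4: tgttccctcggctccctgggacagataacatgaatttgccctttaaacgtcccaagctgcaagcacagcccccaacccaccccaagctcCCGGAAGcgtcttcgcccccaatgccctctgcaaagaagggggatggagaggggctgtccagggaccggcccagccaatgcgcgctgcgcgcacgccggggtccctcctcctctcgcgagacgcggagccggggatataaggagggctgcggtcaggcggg
Slc25a5: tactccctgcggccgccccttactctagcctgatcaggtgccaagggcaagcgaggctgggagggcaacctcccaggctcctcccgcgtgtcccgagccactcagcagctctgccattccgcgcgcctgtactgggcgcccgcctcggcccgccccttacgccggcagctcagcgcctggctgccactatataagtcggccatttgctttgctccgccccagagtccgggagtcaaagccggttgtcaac

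Motifs were searched on both strands: the interferon element core (GAAA, 2 bases of any kind, GAAA), the STAT element TTCNNNGAA, the NRF1 site (GCGC, 1 base of any kind, TGCGC), the ETS site CCGGAAG, the E-box CACGTG and the ERR site TNAAGGTCA. No 2 matches overlapped in the windows shown. The window of Slc25a4 held 1 ETS site, which 7.74% of all 27456 promoter windows and 3 of 28 member windows hold. That of Slc25a51 held 1 E-box, found in 5.79% of all windows and in 2 of 28 member windows. The windows of Slc25a28, Slc25a44 and Slc25a5 held none of the 6 motifs. The interferon element core, present in 3.29% of all windows, was in none of the 28 member windows. No window was found for Slc25a37, so the search does not cover that mitoferrin. A window without a match says only that these letters are not in it.

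Slc25a4 encodes ADP/ATP carrier 1, the isoform of heart and skeletal muscle. It had 833 and 854 RPM in the controls and 559.8 and 593 RPM in the Crat hairpin libraries, counted with 19718, 1129, 180 and 962 reads, more than any other member in each library. Both Crat hairpin values were lower than both controls, and the spread within a group was small (843 ± 15.2 against 576 ± 23.3 RPM, SD, n = 2). The log2 fold change was -0.55 ± 0.07 (SE, limma adjusted p = 3.2e-04), a group mean at 0.683 of the control. The call held with each library left out, with values from -0.59 to -0.51, and was lost without a variance trend (adjusted p = 0.147) and after thinning (adjusted p = 0.0570).

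Markers of heart muscle cells moved in the same direction: 9 of the 10 cardiomyocyte markers tested fell and none rose, with a median log2 fold change of -1.09. Their summed level was 31694 and 32182 RPM in the controls and 12637 and 13021 RPM in the Crat hairpin libraries. Of the smooth muscle and pericyte markers 6 of 8 fell and 1 rose, of the fibroblast markers 5 of 10 fell and 3 rose, of the endothelial markers tested 1 of 5 fell and 1 rose, and of the leukocyte markers none of 10 passed. In bulk RNA fewer cells of a type and less RNA per cell cannot be told apart, and the part of these shifts in the Slc25a4 result was not tested.

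Slc25a5, ADP/ATP carrier 2, the widely expressed form, had 329.7 and 302 RPM in the controls and 277 and 274 RPM in the Crat hairpin libraries. The groups did not overlap, but the log2 fold change of -0.20 ± 0.09 (SE) did not pass (limma adjusted p = 0.175). Under TMM and median-of-ratios scaling it did, at -0.40 and -0.39 (adjusted p = 0.0183 and 0.0161), as it did in edgeR and DESeq2 at -0.43 and -0.40. The log2 ratio of Slc25a4 to Slc25a5, which no scaling of a library can change, was 1.34 and 1.501 in the controls and 1.02 and 1.12 in the Crat hairpin libraries. It was thus lower in both Crat hairpin libraries, by 0.35 on average, with an exact permutation p of 0.333 (two-sided), the smallest that 2 libraries against 2 can give. The isoforms are close relatives, so reads that match both could make their separate values uncertain. Such reads were not counted.

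The carriers that exchange ATP-Mg for phosphate under the control of calcium did not pass. Slc25a23 had 75.8 and 60.5 RPM in the controls and 52.9 and 72.1 in the Crat hairpin libraries, so that its groups overlapped. Slc25a24 had 56.8 and 43.9 RPM and then 40.4 and 43.7, and Slc25a25 had 29.9 and 39.3 RPM and then 40.4 and 36.4. Their log2 fold changes were -0.13, -0.24 and 0.16, with 95% intervals from -0.59 to 0.33, from -0.72 to 0.23 and from -0.37 to 0.68. The log2 ratio of Slc25a23 to Slc25a24 was 0.42 and 0.46 in the controls and 0.39 and 0.72 after the Crat hairpin, and that of Slc25a24 to Slc25a25 was 0.92 and 0.16 and then 0.00 and 0.27; both overlapped between groups.

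**Figure D2:**
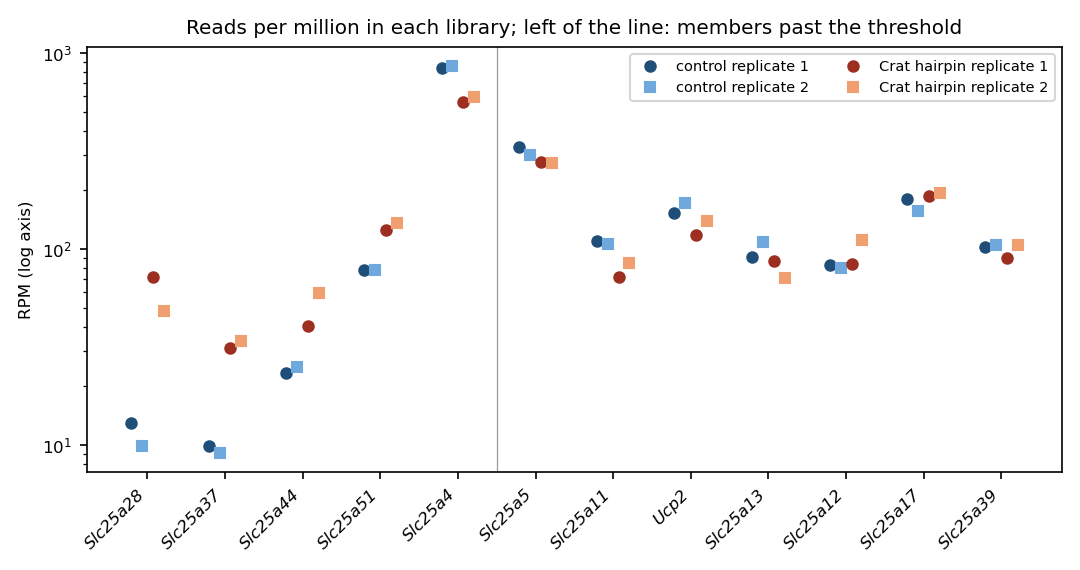
RPM (log axis) in each of the 4 libraries for the 5 carriers past the threshold, left of the line, and for 7 others. Slc25a28 and Slc25a37 lie between 9.08 and 13.0 RPM in the controls and between 31.1 and 71.5 in the Crat hairpin libraries. Slc25a5, Slc25a11, Ucp2 and Slc25a13 are lower in both Crat hairpin libraries than in both controls without passing the test.

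Among the carriers of the malate-aspartate shuttle, Slc25a11, which exchanges malate for oxoglutarate, had 110.1 and 106 RPM in the controls and 71.5 and 84.4 RPM in the Crat hairpin libraries. Both values after the Crat hairpin were below both controls, and the log2 fold change of -0.47 ± 0.15 (SE) just missed the threshold (limma adjusted p = 0.0583). It passed under TMM scaling, at -0.67 (adjusted p = 0.0132), under median-of-ratios scaling, at -0.66 (adjusted p = 0.0138), and in edgeR, at -0.62 (adjusted p = 1.1e-04), but not in DESeq2 (adjusted p = 0.0782).

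Neither aspartate-glutamate carrier passed, and their values had opposite signs. Slc25a12 (aralar), the main form of heart and brain, had 82.3 and 79.4 RPM in the controls and 84.0 and 111 in the Crat hairpin libraries. Slc25a13 (citrin), the main form of liver, had 90.8 and 108 RPM and then 87.1 and 70.9. Their log2 fold changes were 0.25 and -0.33, with 95% intervals from -0.13 to 0.63 and from -0.71 to 0.05. Under TMM scaling Slc25a12 came to 0.049, and Slc25a13 passed at -0.54 (adjusted p = 0.0482), as it did in edgeR at -0.56 (adjusted p = 0.0013) and without Crat hairpin replicate 1 (-0.48, adjusted p = 0.0217). Slc25a12 passed without Crat hairpin replicate 1 (0.45, adjusted p = 0.0164) and with voom, a limma fit on reads weighted by their precision that was added after seeing the data (0.37, adjusted p = 0.0250). The log2 ratio of Slc25a12 to Slc25a13 was -0.14 and -0.45 in the controls and -0.05 and 0.65 in the Crat hairpin libraries. It was higher in both, by 0.59 on average (exact permutation p = 0.333, the smallest possible), although the gap between Crat hairpin replicate 1 and control replicate 1 was smaller than the spread within either group.

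The glutamate carrier Slc25a22 had 42.1 and 28.8 RPM in the controls and 46.7 and 59.8 RPM in the Crat hairpin libraries, a log2 fold change of 0.59 that did not pass (limma adjusted p = 0.135). The dicarboxylate carrier Slc25a10 was uncertain: its Crat hairpin values, 9.33 and 29.6 RPM, lay on either side of the controls at 17.9 and 16.6. It passed in opposite directions without Crat hairpin replicate 1 (0.74, limma adjusted p = 0.0388) and without Crat hairpin replicate 2 (-0.82, limma adjusted p = 0.0360).

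Uncoupling protein 2, encoded by Ucp2, had 153 and 172 RPM in the controls and 118 and 139 RPM in the Crat hairpin libraries. The groups did not overlap, and the log2 fold change of -0.33 ± 0.13 (SE) did not pass (limma adjusted p = 0.116). It passed under TMM scaling at -0.54 (adjusted p = 0.0197), under median-of-ratios scaling at -0.53 (adjusted p = 0.0221) and in edgeR at -0.43 (adjusted p = 0.0020). Leukocytes also express Ucp2. The summed level of the 10 leukocyte markers was 62.7 and 61.3 RPM in the controls and 77.8 and 71.5 RPM in the Crat hairpin libraries. In Crat hairpin replicate 1 that sum rested on 25 reads, and Csf1r was the marker without a read. The part of leukocytes in the Ucp2 result was not tested. The relative Slc25a30 had 31.6 and 43.1 RPM and then 49.8 and 65.9, at 0.62 (limma adjusted p = 0.101). It passed in edgeR at 0.71 (adjusted p = 7.8e-04), with voom at 0.97 (adjusted p = 1.4e-05) and without Crat hairpin replicate 1 at 0.82 (adjusted p = 0.0086). Slc25a14 and Slc25a27, known best from brain, had 1 and 2 reads in Crat hairpin replicate 1, and their intervals spanned from -1.21 to 1.51 and from -0.66 to 2.04.

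Of the amino acid carriers Slc25a44, which brings branched-chain amino acids into mitochondria, had 23.2 and 25.0 RPM in the controls and 40.4 and 59.8 RPM in the Crat hairpin libraries. Both Crat hairpin values were above both controls, the group mean was 2.08-fold higher and the log2 fold change was 1.002 ± 0.25 (SE, limma adjusted p = 0.0222). This call was lost in 8 of 19 alternatives: under TMM scaling (0.80, adjusted p = 0.0575), under median-of-ratios scaling (0.81, adjusted p = 0.0550), without control replicate 1 (0.95, adjusted p = 0.306), without control replicate 2 (1.05, adjusted p = 0.0933), in DESeq2 (0.95, adjusted p = 0.0878), without a variance trend (adjusted p = 0.129), after thinning (adjusted p = 0.119) and by the authors' deposited table (adjusted p = 0.240). Slc25a38, a glycine carrier that feeds haem synthesis, had 10.6 and 15.1 RPM and then 28.0 and 22.8, a log2 fold change of 0.94 that did not pass (limma adjusted p = 0.0752) but did in edgeR (adjusted p = 0.0170) and with voom (adjusted p = 2.8e-04). The ornithine carrier Slc25a15, the basic amino acid carrier Slc25a29 and the S-adenosylmethionine carrier Slc25a26 had overlapping groups and 3, 1 and 5 reads in Crat hairpin replicate 1.

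Among carriers of nucleotides and cofactors Slc25a51, the mitochondrial NAD carrier, had 78.0 and 77.9 RPM in the controls and 124 and 136 RPM in the Crat hairpin libraries. The controls were nearly equal, the groups did not overlap and the mean was 1.67-fold higher. The log2 fold change was 0.73 ± 0.14 (SE, limma adjusted p = 0.0051); it was 0.53 under TMM scaling (adjusted p = 0.0285). The call was lost without control replicate 1 (adjusted p = 0.150), in DESeq2 (adjusted p = 0.0834), without a variance trend (adjusted p = 0.109), by the authors' deposited table (adjusted p = 0.131) and after thinning, where the value was 0.39 (adjusted p = 0.591).

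2 members carry pyrimidine nucleotides into mitochondria, and neither passed. Slc25a33 had 7.09 and 7.57 RPM in the controls and 18.7 and 14.8 RPM in the Crat hairpin libraries, from 6 and 24 reads, a log2 fold change of 1.08 (limma adjusted p = 0.0801, and 0.0022 with voom). Slc25a36 had 57.9 and 62.8 RPM and then 56.0 and 61.6, with overlapping groups and an interval from -0.43 to 0.35. The log2 ratio of Slc25a33 to Slc25a36 was -3.03 and -3.05 in the controls and -1.58 and -2.06 in the Crat hairpin libraries, a difference of 1.22 and the largest of the 7 pairs compared. Its exact permutation p was 0.333, as it was for every pair without overlap; adjusted over the 7 pairs no p could pass.

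Slc25a17, which carries coenzyme A, FAD and NAD across the membrane of peroxisomes, had 180.2 and 156 RPM in the controls and 187 and 193 in the Crat hairpin libraries. Its groups did not overlap, yet the difference of 0.18 was small and lay within an interval from -0.08 to 0.44; it was -0.03 under TMM scaling. The coenzyme A carrier Slc25a42 had 11.3 RPM in both controls and 24.9 and 16.0 after the Crat hairpin (log2 fold change 0.77, limma adjusted p = 0.169). Slc25a32, the folate and FAD carrier, had 8.61 and 9.84 RPM in the controls, no read in Crat hairpin replicate 1 and 3.70 RPM in replicate 2. A count of 0 in that library allows up to 9.33 RPM (3 reads, counting error only), which includes the level of control replicate 1. The fitted log2 fold change was -2.24 (limma adjusted p = 0.0805). Without Crat hairpin replicate 1 it was -1.12 and passed (adjusted p = 0.0483), and it was -3.35 without Crat hairpin replicate 2 (adjusted p = 1.4e-04) and -1.73 in edgeR (adjusted p = 0.0119). Slc25a16 had 7 reads there and did not pass, at -0.38.

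Of the members that are little known or sit elsewhere, Slc25a46, a protein of the outer membrane that shapes mitochondria, had 47.9 and 48.4 RPM in the controls and 71.5 and 52.4 in the Crat hairpin libraries (log2 fold change 0.34, limma adjusted p = 0.296). Slc25a35 had 5.45 and 4.54 RPM and then 15.6 and 9.86, from 5 and 16 reads, at 1.17 (limma adjusted p = 0.112). Slc25a43 and Slc25a45 had at most 1.27 RPM in any library.

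**Figure D3:**
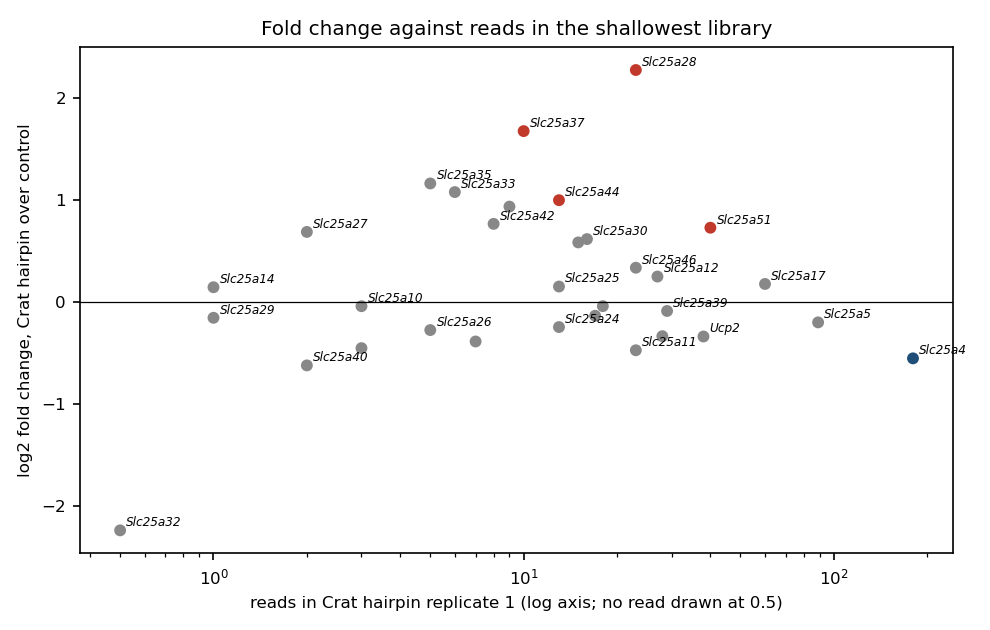
Log2 fold change of 32 of the 33 tested carriers against their reads in Crat hairpin replicate 1 (log axis, no read drawn at 0.5); red and blue mark members called higher and lower, and 7 crowded points are not named. Called members had from 10 to 180 reads in that library. Uncalled Slc25a33, Slc25a35, Slc25a38 and Slc25a42, with log2 fold changes from 0.77 to 1.17, had under 10. Uncalled Slc25a30 and Slc25a22, at 0.62 and 0.59, had 16 and 15, more than the called Slc25a37 and Slc25a44. Slc25a38 and Slc25a22 are among the points not named.

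Together the 35 members took 0.253% and 0.251% of the reads in the controls and 0.228% and 0.245% in the Crat hairpin libraries. Slc25a4 was the largest single part among them. Slc25a1 and Slc25a20, left out by the rule, and Slc25a3, which had no row, are not in these sums. Groups did not overlap for 23 of 33 members, or 69.7%, against 60.8% of all genes; 14 were higher (42.4%, against 39.1% of all genes) and 9 lower (27.3%, against 21.7%). The median size of change, without regard to sign, was 0.45 log2 units for the members and 0.45 for all genes. RPM is not divided by length, so the order of carriers by reads, in which Slc25a4 came first, need not be their order by transcripts.

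**Figure D4:**
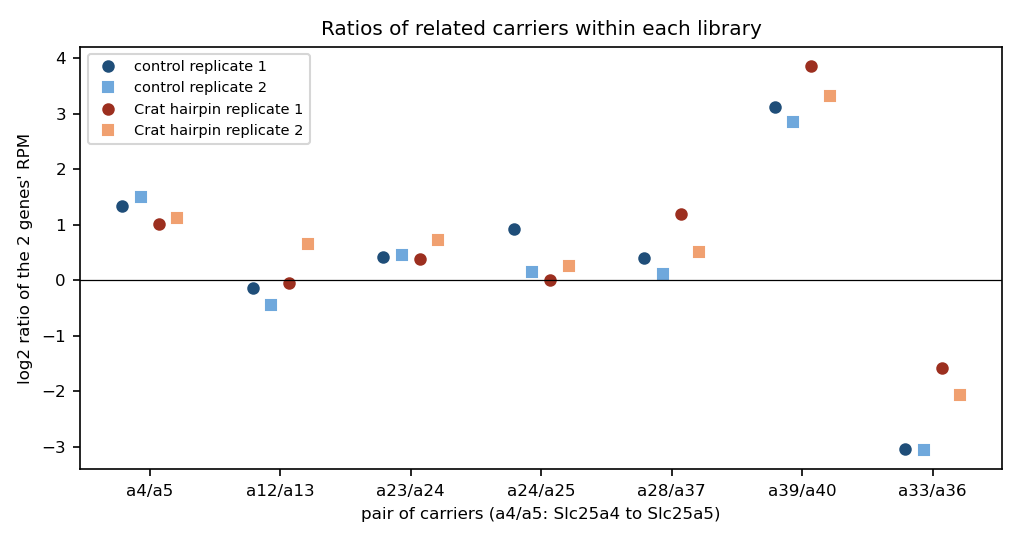
Log2 ratio of the RPM of 2 related carriers within each library, for 7 pairs (a4/a5 stands for Slc25a4 to Slc25a5); circles are replicate 1 and squares replicate 2. Slc25a4 to Slc25a5 is lower in both Crat hairpin libraries. Slc25a33 to Slc25a36, Slc25a12 to Slc25a13, Slc25a28 to Slc25a37 and Slc25a39 to Slc25a40 are higher in both. Slc25a23 to Slc25a24 and Slc25a24 to Slc25a25 overlap.

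The neighbours of the family were looked at in a list of 39 genes of other mitochondrial transport and of carrier import, of which 32 were tested. Of these 3 rose, 1 fell and 28 did not pass (2 and 6 under TMM scaling), with a median log2 fold change of 0.01. Over all genes tested 12.6% rose and 6.36% fell, and 7.74% and 9.89% did under TMM scaling. The share of all genes called also moved with each library left out, as given above. Slc8b1, the mitochondrial sodium-calcium exchanger, had 32.9 and 38.6 RPM in the controls and 77.8 and 103.5 in the Crat hairpin libraries, a log2 fold change of 1.31 (limma adjusted p = 0.0017). Micu2, a gatekeeper of the calcium uniporter, rose by 0.61 (limma adjusted p = 0.0322), and Sfxn3, a serine carrier of another family, fell by 1.14 (limma adjusted p = 0.0025). Of the 10 import genes tested Timm10, a chaperone that escorts carriers between the membranes, rose by 1.05 (limma adjusted p = 0.0150), and the other 9 did not pass. None of the 4 outer-membrane genes tested passed; the voltage-dependent anion channel Vdac1 had 349 and 362 RPM in the controls and 308 and 341 after the Crat hairpin, and Vdac3 had 287 and 277 and then 252 and 256. The counts that rose and fell were 0 and 0 without control replicate 1 (limma, with 2 and 1 at an unadjusted p under 0.05), 1 and 1 without control replicate 2, 8 and 2 without Crat hairpin replicate 1, and 6 and 11 without Crat hairpin replicate 2.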

How the data were processed

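Libraries were made from total RNA, per the labels' protocols. Kallisto, DESeq2 and the rat build mRatBN7.2 are named, with no tool version, in the submitters' processing notes. The deposited signal is headed TPM by the authors, but within each library every value is a whole multiple of 1 step, to within 0.02 of a read in 100% of the values, so it was read as RPM (reads scaled to the library total), and the reads were recovered by dividing by that step. The authors' deposited p-value and adjusted p-value were used as an alternative only. An identifier on several rows (140 of 14137) was used once. Members of the family, gene lists and tests were chosen with earlier results of these data known. The 12949 genes whose mean reached 1 RPM were fitted as log2(RPM + 1) by limma-trend (limma 3.58.1, R 4.3.3; two-sided), with Benjamini-Hochberg adjustment over all of them and a threshold of 0.05. The fit was tested on simulated data. Unless an alternative is named, fitted log2 fold changes are on the log2(RPM + 1) scale and understate the change of low genes. Those of edgeR, DESeq2 and voom come from the recovered reads. The values of 1 tested member, which stays in the counts, are not reported here. All other members could be named, with values in every library for those past the threshold, for the 8 with the highest mean and for related pairs; Slc25a10, Slc25a22, Slc25a30, Slc25a32, Slc25a35, Slc25a38, Slc25a42 and Slc25a46 were given values after these were seen. Alternatives were other pseudocounts, filters, scalings and variance priors, and edgeR 4.0.16 and DESeq2 1.42.0 on the recovered reads. The authors' p-values, thinning, a replicate block and each library left out were alternatives too. The voom fit, which weights each value by its expected precision, was added after seeing the data. Promoter windows came from RefSeq, build GRCr8, and were matched by symbol for 28 of 35 members. The sources name no separate cultures behind the replicates, so p-values reach no further than the spread between these libraries. In limma-trend the spread of each gene is also drawn toward a trend over all genes, so its p-values rest partly on other genes.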

Additional observations from a re-analysis of the deposited data

How the results depend on the processing

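The counts of carriers that rose and fell, 4 and 1, stayed within 1.5 times under other pseudocounts, other filters and a robust prior. They were 3 and 5 under TMM scaling, 3 and 4 under median-of-ratios scaling, 4 and 2 with totals that leave out the mitochondrial genome, 6 and 7 in edgeR, 2 and 2 in DESeq2, 10 and 3 with voom, and 2 and 1 by the authors' deposited adjusted p. The share of members called was 24.2%, 21.2%, 18.2%, 39.4%, 12.1%, 39.4% and 8.57% in that order, against 17.6%, 17.7%, 18.0%, 29.6%, 12.5%, 36.5% and 10.5% of all genes. Without a variance trend limma called 1 and 0 (7 and 1 at an unadjusted p under 0.05), or 3.03% against 2.66% of all genes, and after thinning it called 0 and 0 of 34 tested members (4 and 3 at an unadjusted p under 0.05) and 143 of 12728 genes in all. With a library left out the higher count ran from 1 to 9 and the lower from 1 to 8; with 1 library in a group, that library is taken to vary like the other group. With the replicate block the counts were 4 and 2, Slc25a32 being added, or 18.2% of the members, with 2596 of 12949 genes called. Deviations of same-numbered libraries correlated at 0.00612. With so few reads in Crat hairpin replicate 1, that value cannot decide whether the numbers pair the cultures. The main fit used no pairing. For the neighbouring genes, 3 and 1, the counts were 2 and 6 under both scalings, 2 and 3 without the mitochondrial genome, 2 and 8 in edgeR, 1 and 2 in DESeq2, 7 and 3 with voom, 1 and 1 by the authors' deposited adjusted p, and 0 and 0 without a trend and after thinning (limma, 4 and 1, then 1 and 3, at an unadjusted p under 0.05); with a library left out they ran from 0 to 8 and from 0 to 11. Crat passed under all 19 alternatives, from -3.06 to -2.56. The cause of these shifts was not tested. In Crat hairpin replicate 1, 16 of 35 members had under 10 reads, and the part of depth in the calls was not tested.

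None of the members whose log2 fold change turned sign was called here. Under TMM and median-of-ratios scaling Slc25a14 came to -0.018 and -0.0086, Slc25a17 to -0.025 and -0.012, and Slc25a25 to -0.046 and -0.033. In edgeR Slc25a10 was 0.333 and Slc25a17 -0.065. In DESeq2 Slc25a10 was 0.173, Slc25a17 -0.024 and Slc25a25 -0.036. With voom Slc25a10 was 0.487, Slc25a36 0.069 and Slc25a39 0.0055. By the ratio of group means set beside the authors' deposited adjusted p, Slc25a10 was 0.164. After thinning Slc25a10 was 1.01, Slc25a13 0.114, Slc25a27 -1.02, Slc25a29 1.02 and Slc25a39 0.240. With a library left out the log2 fold change ran from -0.82 to 0.74 for Slc25a10, -0.37 to 0.66 for Slc25a14, -1.02 to 0.12 for Slc25a15, -0.35 to 0.089 for Slc25a23, -0.04 to 0.35 for Slc25a25, -0.33 to 0.025 for Slc25a29, -0.11 to 0.031 for Slc25a36 and -0.19 to 0.022 for Slc25a39.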
